A study of Rattus norvegicus with 54 samples.

Results

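Lyve1, Cdh5 and C1qc were followed as transcripts that mark lymphatic endothelium, blood vessel endothelium and macrophages in the fetal rat gubernaculum and testis. They are 3 of the 2844 genes that can be named here through the gene symbols of the authors' deposited lists, and each is represented by 1 probe set. C1qc is probe set 1373025_at, listed under the older symbol C1qg, and Cdh5 is 1389255_at. Lyve1 is 1382732_at, listed as Xlkd1, a synonym of Lyve1 in the RefSeq gene table. All 3 genes were selected by the authors on these same arrays: Lyve1 and C1qc stand in their gubernaculum list, and Cdh5 stands in their list of probe sets that differ between GD18 and GD20 in LE/wt. The gubernaculum list was drawn from tests between the strains at GD18 and GD20 and an analysis of variance over groups, so the p-values given below for Lyve1 and C1qc in gubernaculum are not independent of that choice. Nor are those for Cdh5 in gubernaculum that use the LE/wt males of GD18 or GD20. These include its strain differences on those days, its sex difference, its LE/wt day changes and the changes of its strain difference.

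LYVE1 is a hyaluronan receptor of the lymphatic endothelium that is also carried by some tissue macrophages and by some young blood vessels. Cdh5 encodes VE-cadherin, the adhesion protein of the junctions between endothelial cells, and is used as a general marker of blood and lymphatic endothelium. C1qc encodes the C chain of complement component C1q, which tissue macrophages make and which binds immune complexes and dying cells. The gubernaculum is the cord of mesenchyme and muscle that anchors the fetal testis and enlarges during its descent.

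Tissue came from fetuses of LE/orl, a rat strain with inherited cryptorchidism, and of LE/wt, the wildtype strain. For each strain there were 4 male left gubernacula at gestational day (GD) 18, 4 at GD19 and 4 at GD20, and 3 male right gubernacula at GD20. The male LE/wt gubernacula of GD18 could also be set against 4 female ones of that strain and day, for which both sides of a fetus were pooled. Testis was represented by 5 left organs per strain at GD17 and 5 at GD19. Each array held the RNA of 1 fetus, and at GD20 replicate letters mark the fetus, so that the right gubernaculum lettered A is the partner of the left one lettered A. Levels are the authors' log2 GCRMA values, on which a step of 1 is a doubling, and a value under 5 was treated as low signal. Levels of the 3 genes were not compared between tissues, because gubernaculum RNA was labelled after 2 rounds of amplification and testis RNA after 1.

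The labelled tissues were checked with their markers. Lhcgr, the luteinising hormone receptor of Leydig cells, had group means between 7.34 and 9.74 in testis and between 1.80 and 1.90 in gubernaculum, and skeletal muscle actin Acta1 had group means between 12.77 and 14.27 in gubernaculum. Array medians ran from 4.92 to 5.18 in gubernaculum and from 4.76 to 4.85 in testis. A 5′ to 3′ index, the mean of the log2 differences between the 5′ and 3′ control probe sets of beta-actin and GAPDH, is lower where RNA or its labelled copy is shorter. It lay between -7.23 and -6.06 in 13 of the 15 LE/orl gubernaculum arrays and between -4.73 and -3.46 in the 19 LE/wt gubernaculum arrays. The other LE/orl arrays, GD18 replicate A and GD19 replicate D, had an index of -4.16 and -4.32, and the deposited methods text leaves both out of the LE/orl means. In testis the index ran from -1.53 to -0.999.

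**Figure D1:**
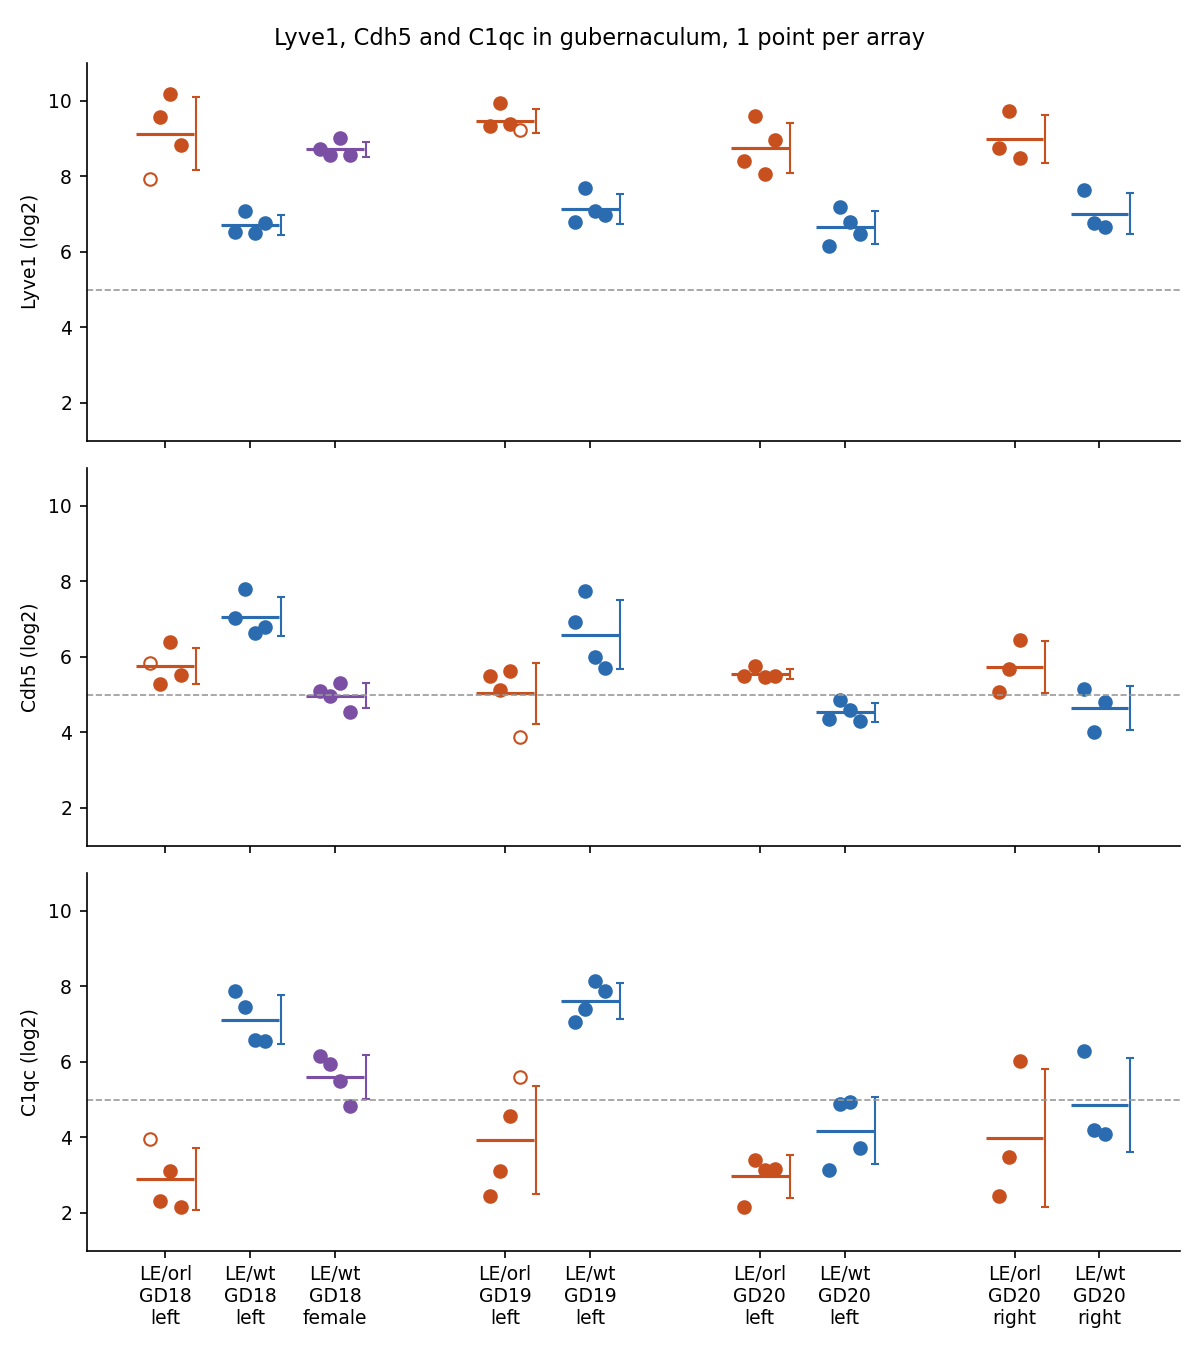
Log2 level of Lyve1, Cdh5 and C1qc (vertical axes) in each gubernaculum array, by group, LE/orl in orange, male LE/wt in blue and female LE/wt in purple; horizontal bars are group means, the bars to their right are ± 1 SD, open circles are the LE/orl arrays with an index near LE/wt, and the dashed line marks a log2 value of 5. Lyve1 is at 7.93 or more in every LE/orl array and at 7.69 or less in every male LE/wt array, and C1qc is at 6.56 or more only in male LE/wt at GD18 and GD19.

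Lyve1 was higher in LE/orl than in LE/wt male gubernaculum at every age and side sampled, by between 3.94 and 5.33 times. At GD18 its log2 level was 7.93, 9.57, 10.17 and 8.84 in LE/orl left gubernacula, against 6.53, 7.08, 6.49 and 6.75 in LE/wt. The lowest LE/orl array stood above the highest LE/wt array. The difference was 2.41 (SE 0.36), or 5.33-fold, with a limma adjusted p of 4.34e-06. All 3 genes passed this test at GD18, where 50.8% of the 8711 features tested did, 26.8% higher and 24.1% lower. The groups did not overlap for any of the 3 genes either, as for 40.6% of all features. At GD19 Lyve1 had 9.33, 9.94, 9.39 and 9.24 in LE/orl and 6.78, 7.69, 7.08 and 6.97 in LE/wt. It was 5.07-fold higher in LE/orl (2.34, SE 0.36, limma adjusted p = 6.06e-06), again without overlap. At GD19 all 3 genes passed against 52.0% of features, 26.2% higher and 25.9% lower, and did not overlap against 37.3%.

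At GD20 Lyve1 was still higher in LE/orl on both sides. The left gubernacula gave 8.41, 9.59, 8.06 and 8.95 in LE/orl, against 6.15, 7.18, 6.78 and 6.48 in LE/wt. The right gubernacula gave 8.75, 9.72 and 8.49 in LE/orl, against 7.63, 6.75 and 6.64 in LE/wt. No LE/orl array fell within the LE/wt range on either side. The difference was 2.10 (SE 0.36, limma adjusted p = 6.20e-05), or 4.30-fold, on the left and 1.98 (SE 0.42, limma adjusted p = 0.000852), or 3.94-fold, on the right. Lyve1 and Cdh5 passed the test on the left, against 46.4% of features, and Lyve1 alone of the 3 genes passed on the right, against 37.7%. Lyve1 and Cdh5 did not overlap between strains on the left, as for 47.4% of features, and on the right Lyve1 alone did not overlap, as for 53.3%. In a bulk sample a lower level can come from fewer cells of a type or from less RNA per cell, and these cannot be told apart.

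Cdh5 was lower in LE/orl at GD18 and GD19, and at GD20 it was higher in LE/orl on the left and missed the threshold on the right. Its log2 level at GD18 was 5.85, 5.28, 6.38 and 5.51 in LE/orl, against 7.03, 7.79, 6.64 and 6.80 in LE/wt. The difference was -1.31 (SE 0.38, limma adjusted p = 0.00542), 2.48-fold lower in LE/orl. At GD19 the arrays gave 5.49, 5.11, 5.64 and 3.88 in LE/orl, against 6.91, 7.74, 5.99 and 5.72 in LE/wt. The strains were separated on both days, narrowly at GD19, where the highest LE/orl array stood at 5.64 and the lowest LE/wt array at 5.72. The GD19 difference was -1.56 (SE 0.38, limma adjusted p = 0.00121), 2.95-fold lower in LE/orl. With values under 5 set to 5, as for the LE/orl array at 3.88, it was -1.28 (limma adjusted p = 0.00128), at least 2.43-fold lower.

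On the left at GD20 the Cdh5 level was 5.48, 5.75, 5.48 and 5.48 in LE/orl, against 4.37, 4.86, 4.59 and 4.31 in LE/wt, so that all LE/wt arrays lay under a log2 value of 5. The difference was 1.02 (SE 0.38, limma adjusted p = 0.0302). With values under 5 set to 5 it was 0.55, or 1.46-fold, and did not pass (adjusted p = 0.161), nor did it with no minimum signal (1.02, adjusted p = 0.0506). The call also ended without LE/wt left replicate A (0.96, adjusted p = 0.0665), LE/wt left replicate D (0.94, adjusted p = 0.0708) or LE/orl left replicate B (0.95, adjusted p = 0.0680). On the right the level was 5.07, 5.67 and 6.44 in LE/orl, against 5.14, 4.01 and 4.79 in LE/wt. The ranges overlapped there, and the difference of 1.08 (SE 0.44, limma adjusted p = 0.0537) missed the threshold. It passed without LE/wt right replicate A (1.33, adjusted p = 0.0402) or LE/orl right replicate A (1.41, adjusted p = 0.0279), with the replicate letter as a block (1.08, adjusted p = 0.0381), with array weights (0.83, adjusted p = 0.0248) and with 75th percentile centring (1.11, adjusted p = 0.0467).

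C1qc was lower in LE/orl at GD18 and GD19, where 7 of the 8 LE/orl arrays were low signals. Its log2 level at GD18 was 3.95, 2.32, 3.12 and 2.17 in LE/orl, against 7.89, 7.44, 6.59 and 6.56 in LE/wt. At GD19 it was 2.44, 3.12, 4.56 and 5.61 in LE/orl, against 7.06, 7.40, 8.14 and 7.88 in LE/wt. No array of LE/orl reached the LE/wt range on either day. The difference was -4.23 (SE 0.65, limma adjusted p = 5.88e-06) at GD18 and -3.69 (SE 0.65, limma adjusted p = 3.48e-05) at GD19. With values under 5 set to 5 the level was at least 4.34-fold lower in LE/orl at GD18 (-2.12, adjusted p = 1.77e-06) and at least 5.53-fold lower at GD19 (-2.47, adjusted p = 1.72e-07). Of the 15 LE/orl gubernaculum arrays 13 were under 5. C1qc reached the minimum signal for testing through LE/wt arrays. Of these, 9 of 15 male and 3 of 4 female arrays were at 5 or more. Entry in this way favours a difference between the strains, so the strain tests of C1qc are not independent of it.

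At GD20 C1qc did not pass the test between the strains on either side. The left gubernacula gave 2.15, 3.41, 3.13 and 3.17 in LE/orl, against 3.15, 4.89, 4.95 and 3.71 in LE/wt. The right gubernacula gave 2.45, 3.48 and 6.02 in LE/orl, against 6.28, 4.20 and 4.09 in LE/wt. The ranges overlapped on both sides, and most of these values were low signals. The difference was -1.21 (SE 0.65, 95% interval -2.54 to 0.12, limma adjusted p = 0.129) on the left and -0.87 (SE 0.75, 95% interval -2.41 to 0.66, limma adjusted p = 0.369) on the right. With only the compared groups in the fit the left difference passed (-1.21, SE 0.43, adjusted p = 0.0433). Without LE/orl right replicate C, the array at 6.02, the right difference was -1.89 and passed (adjusted p = 0.0497).

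**Figure D2:**
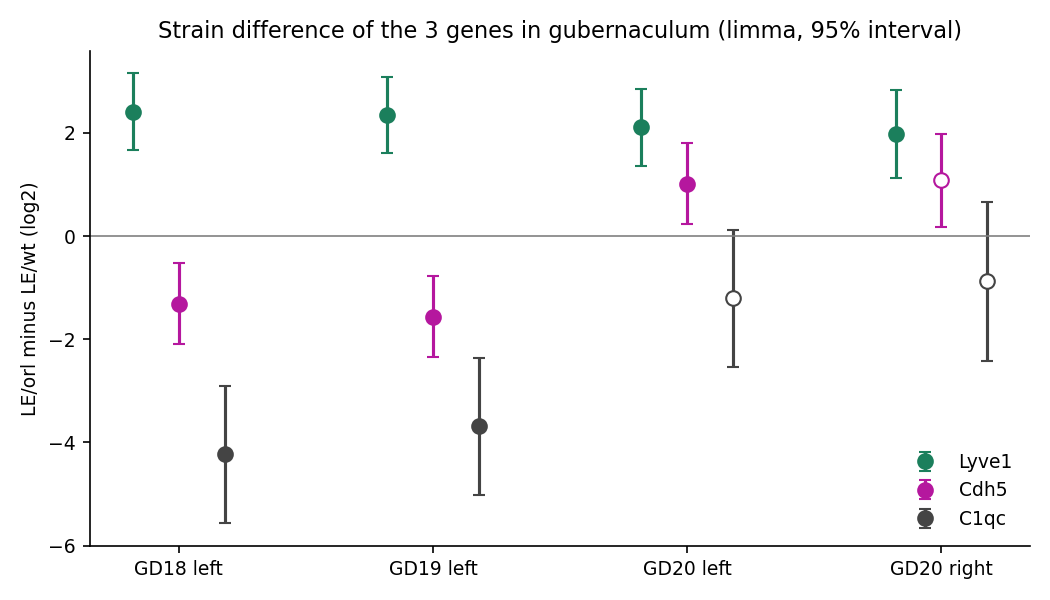
Difference LE/orl minus LE/wt in log2 units (vertical axis) for Lyve1, Cdh5 and C1qc at each age and side, with 95% intervals from limma; filled circles passed an adjusted p of 0.05 and open circles did not. Lyve1 stays between 1.98 and 2.41, Cdh5 lies at -1.31 and -1.56 at GD18 and GD19 and at 1.02 and 1.08 at GD20, and C1qc lies at -4.23 and -3.69 before and at -1.21 and -0.87 at GD20.

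The day series asked when these levels change in each strain. In LE/wt left gubernaculum both Cdh5 and C1qc fell between GD19 and GD20, and Lyve1 did not pass the test. Cdh5 averaged 4.53 ± 0.25 at GD20 and 6.59 ± 0.92 at GD19 (SD, n = 4 each), a difference of -2.06 (SE 0.38, limma adjusted p = 0.000111). C1qc averaged 4.17 ± 0.89 at GD20 and 7.62 ± 0.48 at GD19 (SD, n = 4 each), a difference of -3.44 (SE 0.65, limma adjusted p = 0.000137). All GD20 arrays of both genes were under 5, and with such values set to 5 the level was at least 3.01-fold lower at GD20 for Cdh5 (-1.59, adjusted p = 0.000224) and at least 6.14-fold lower for C1qc (-2.62, adjusted p = 1.39e-07). The GD20 arrays of both genes lay wholly below the GD19 arrays, and these 2 of the 3 genes passed where 39.5% of features did and did not overlap where 46.4% did not. Lyve1 averaged 6.65 ± 0.44 at GD20 and 7.13 ± 0.39 at GD19 in LE/wt (SD, n = 4 each), with a difference of -0.48 (SE 0.36, limma adjusted p = 0.299). In LE/orl none of the 3 genes passed between GD20 and GD19, where 0.0804% of features did. The differences in LE/orl were -0.72 for Lyve1, 0.52 for Cdh5 and -0.96 for C1qc, with limma adjusted p-values of 0.478, 0.630 and 0.597. For C1qc 13 of the 15 LE/orl gubernaculum arrays were under 5, which left little room for a fall. Between GD19 and GD18 none of the 3 genes passed in either strain, where limma called 9 features (0.103%) in LE/orl and 21 (0.241%) in LE/wt.

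Whether the strain difference itself changed with day was tested as an interaction. For Cdh5 it changed by 2.58 (SE 0.54, limma adjusted p = 0.00100) between GD20 and GD19 and by 2.33 (SE 0.54, limma adjusted p = 0.00215) between GD20 and GD18. For C1qc it changed by 2.48 (SE 0.92, limma adjusted p = 0.0450) and by 3.03 (SE 0.92, limma adjusted p = 0.0151). Cdh5 and C1qc passed both tests, against 26.8% and 27.5% of features. For C1qc a fall like that of LE/wt could not show in LE/orl, where most arrays were already low signals. For Lyve1 the change was -0.24 (SE 0.51, 95% interval -1.29 to 0.81) and -0.31 (SE 0.51, 95% interval -1.36 to 0.74), which did not pass. The GD20 minus GD19 result of C1qc was close to the threshold: it was lost when any 1 of 10 of the 16 arrays was left out. These were LE/orl GD19 replicates A and B, LE/orl GD20 replicates B, C and D, LE/wt GD19 replicates B, C and D and LE/wt GD20 replicates A and D, with values between 1.98 and 2.55 and adjusted p-values up to 0.104. With the replicate letter as a block it was 2.48 with an adjusted p of 0.0531. With the fetus as a block the same value had an adjusted p of 0.0617. The Cdh5 results and the GD20 minus GD18 result of C1qc passed whichever array was left out. Between GD19 and GD18 no feature changed by this limma test (0.0% of 8711; 184 at an unadjusted p under 0.05), the 3 genes included.

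The strain results were then read beside the 5′ to 3′ index. At GD18 and GD19 the LE/orl arrays with an index near LE/wt, GD18 replicate A and GD19 replicate D, lay outside the LE/wt range of their day for all 3 genes. For Lyve1 they stood at 7.93 and 9.24, below the other LE/orl arrays of their day and above LE/wt. For C1qc they stood at 3.95 and 5.61, above the other LE/orl arrays and below LE/wt. For Cdh5 they stood at 5.85, within the other LE/orl arrays, and at 3.88, below them. Set against LE/wt of both days, these 2 arrays differed by 1.66 for Lyve1, -1.97 for Cdh5 and -2.59 for C1qc. Each of the 2 stood alone for its group in that fit, so the spread came wholly from other groups. The 6 other LE/orl arrays differed by 2.62, -1.26 and -4.42, and all 3 genes passed there. With all 8 LE/orl arrays of both days, 65.2% of features passed. Within a single day the near array stood alone for its group, and it was assumed to vary like the other groups, which supplied the spread. It passed at GD18 for C1qc (-3.17, adjusted p = 0.0155) and at GD19 for Lyve1 (2.11, adjusted p = 0.00200) and Cdh5 (-2.71, adjusted p = 0.000457). It missed the threshold at GD18 for Lyve1 (1.21, adjusted p = 0.0810) and Cdh5 (-1.22, adjusted p = 0.107) and at GD19 for C1qc (-2.01, adjusted p = 0.0929).

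With the index as a covariate in the fit, all 3 genes still passed at GD18, at 1.83 for Lyve1, -1.99 for Cdh5 and -3.35 for C1qc. They also passed at GD19, at 1.73, -2.28 and -2.76. Within groups the index varied most in LE/orl at GD18 and GD19 (SD 1.29 and 1.24, against at most 0.43 in the other gubernaculum groups). The covariate thus rested largely on GD18 replicate A and GD19 replicate D and was not a separate check. Its GD20 values carry the same limit. At GD20 all 7 LE/orl arrays had an index of -6.06 or lower and no LE/orl array lay near LE/wt, so strain and index cannot be told apart there. With the covariate the GD20 left difference was 1.40 (adjusted p = 0.322) for Lyve1 and 0.19 (adjusted p = 0.950) for Cdh5, and the right difference of Lyve1 was 1.25 (adjusted p = 0.680), so the 3 GD20 calls were lost. The right difference of C1qc was 0.23 with the covariate (adjusted p = 0.993), opposite in sign to the value without it. The changes of the strain difference between GD20 and GD19 were 2.48 for Cdh5 and 2.61 for C1qc with the covariate, both past the threshold. The mean index was -6.10 in LE/orl and -3.76 in LE/wt at GD19, and -6.34 and -3.68 at GD20. With so similar a gap on both days the covariate could change these values little, so they decide nothing about the index. For the fall of Cdh5 and C1qc within LE/wt the mean index was -3.68 at GD20 and -3.76 at GD19. The part of RNA or label quality in that fall was not tested.

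**Figure D3:**
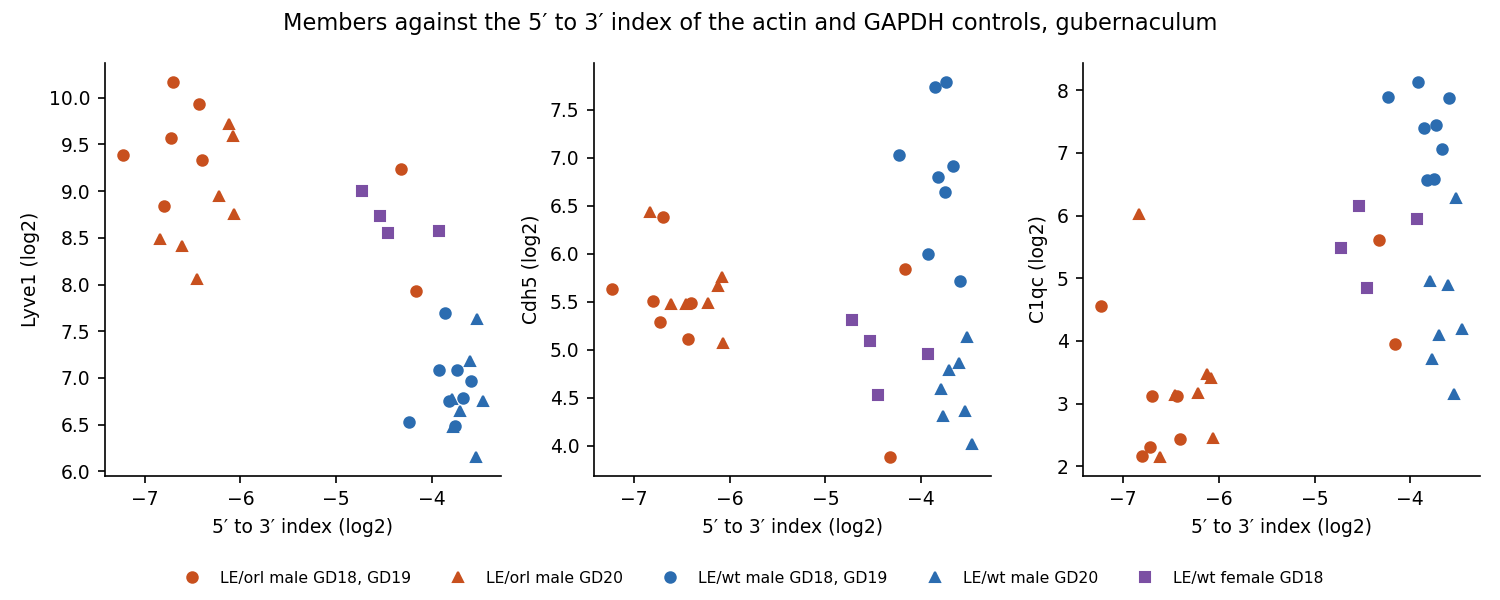
Log2 level of Lyve1, Cdh5 and C1qc (vertical axes) against the 5′ to 3′ index in log2 units (horizontal axes) for the 34 gubernaculum arrays, with LE/orl in orange, male LE/wt in blue and female LE/wt in purple; circles are GD18 and GD19 males, triangles GD20 males and squares females. Of the LE/orl arrays, 13 lie left of -6 and the other 2 at -4.16 and -4.32, near the female and male LE/wt arrays.

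The sexes were compared in LE/wt at GD18, where the male gubernaculum enlarges. Lyve1 was lower and Cdh5 higher in males. Lyve1 was at 6.53, 7.08, 6.49 and 6.75 in males, against 8.73, 8.57, 9.00 and 8.56 in females. The difference was -2.0 (SE 0.36, limma adjusted p = 3.91e-05), or 4.00-fold. Cdh5 was at 7.03, 7.79, 6.64 and 6.80 in males and at 5.09, 4.95, 5.31 and 4.53 in females, a difference of 2.10 (SE 0.38, limma adjusted p = 4.14e-05), or 4.28-fold. With values under 5 set to 5 this Cdh5 difference was 1.97 (limma adjusted p = 7.21e-06), at least 3.91-fold. The sexes did not overlap for either gene. C1qc was at 7.89, 7.44, 6.59 and 6.56 in males and at 6.15, 5.94, 5.48 and 4.84 in females. Its sexes did not overlap either, but the difference of 1.52 (SE 0.65, limma adjusted p = 0.0511) missed the threshold. It passed without female replicate A (1.70, adjusted p = 0.0495) or male replicate D (1.70, adjusted p = 0.0475), and under 6 of 12 other alternatives, with values between 1.45 and 1.63 and adjusted p-values up to 0.0491. In this comparison 53.1% of features passed, and 54.5% did not overlap. The index ran from -4.23 to -3.73 in males and from -4.73 to -3.93 in females.

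The LE/wt males of GD18 enter both the strain comparison and the sex comparison, so the results share these arrays. Side by side, Lyve1 averaged 9.13 ± 0.97 in LE/orl males, 6.71 ± 0.27 in LE/wt males and 8.71 ± 0.21 in LE/wt females (SD, n = 4 each). Cdh5 averaged 5.76 ± 0.48 in LE/orl males, 7.07 ± 0.51 in LE/wt males and 4.97 ± 0.33 in LE/wt females. C1qc averaged 2.89 ± 0.82 in LE/orl males, 7.12 ± 0.66 in LE/wt males and 5.60 ± 0.58 in LE/wt females. The female and LE/orl ranges overlapped for Lyve1, for which all 4 female arrays lay within 7.93 to 10.17, and not for C1qc.

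Ranked over the 9 gubernaculum groups by their means, Lyve1 formed a high block and a low block. The 4 LE/orl groups and the females had means from 8.71 to 9.47, and the 4 male LE/wt groups had means from 6.65 to 7.13. The step between the blocks was 1.58, without overlap, and every other pair of neighbours overlapped. C1qc was highest in LE/wt males at GD19 (7.62 ± 0.48) and GD18 (7.12 ± 0.66), with a step of 1.52 without overlap down to the females, below which every pair of neighbours overlapped. For Cdh5 every pair of neighbours overlapped, from 7.07 ± 0.51 in LE/wt males at GD18 down to 4.53 ± 0.25 in LE/wt left at GD20. Differences between such neighbours were within the larger of their SDs.

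Right and left gubernacula were compared at GD20, and none of the 3 genes passed in either strain. The limma test called 0 features in LE/orl and 0 in LE/wt (0.0% in each; 420 and 19 at an unadjusted p under 0.05). The right minus left difference was 0.24 in LE/orl and 0.36 in LE/wt for Lyve1, 0.18 and 0.11 for Cdh5, and 1.02 and 0.68 for C1qc. Within a fetus C1qc was 6.02 on the right and 3.13 on the left in LE/orl fetus C, and 6.28 on the right and 3.15 on the left in LE/wt fetus A. In the 4 other fetuses with both sides its sides differed by between -0.86 and 0.30. The large gaps in C1qc thus stood in 1 fetus of each strain. In LE/orl fetus C and LE/wt fetus A, Cdh5 was also higher on the right, by 0.96 and 0.77. So was Lyve1, by 0.44 and 1.48.

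Of the other genes of blood vessel endothelium, few carry a name here. From a list of 34 such genes 4 were named and tested: Cdh5, Icam2, an adhesion molecule of resting endothelium, Emcn, the sialomucin endomucin, and Ramp2, the partner of the adrenomedullin receptor. All 4 were lower in LE/orl at GD18, where 24.1% of features were, and at GD19, where 25.9% were, with a median difference of -1.20 at GD18 and -1.39 at GD19, against 0.06 and 0.02 over all features. Icam2 was 5.43 ± 0.49 in LE/orl and 6.57 ± 0.30 in LE/wt at GD18 (SD, n = 4 each), a difference of -1.14 (SE 0.38, limma adjusted p = 0.0137), and -1.84 (SE 0.38, limma adjusted p = 0.000218) at GD19. Emcn differed by -0.82 (SE 0.28, limma adjusted p = 0.0154) and -1.03 (SE 0.28, limma adjusted p = 0.00309). Ramp2 differed by -1.27 (SE 0.37, limma adjusted p = 0.00586) and -1.22 (SE 0.37, limma adjusted p = 0.00774). Since the authors chose every named gene on these arrays, the shared direction is not independent evidence.

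At GD20 the 4 endothelial genes parted. On the left Cdh5 was higher in LE/orl and Ramp2 lower (-1.44, SE 0.37, limma adjusted p = 0.00252), and Icam2 (0.48) and Emcn (0.32) did not pass. Within LE/wt, Cdh5, Icam2 (-1.90, SE 0.38, limma adjusted p = 0.000249) and Emcn (-1.21, SE 0.28, limma adjusted p = 0.00112) fell between GD19 and GD20, and Ramp2 differed by 0.14 (limma adjusted p = 0.795). The strain difference of Icam2 changed by 2.32 (limma adjusted p = 0.00242) and that of Emcn by 1.35 (limma adjusted p = 0.0127) between GD20 and GD19, while Ramp2 changed by -0.23 (limma adjusted p = 0.785). Males were higher than females for Cdh5, Icam2 (2.03, SE 0.38, limma adjusted p = 5.73e-05) and Emcn (0.79, SE 0.28, limma adjusted p = 0.0193), and Ramp2 did not pass (-0.29).

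**Figure D4:**
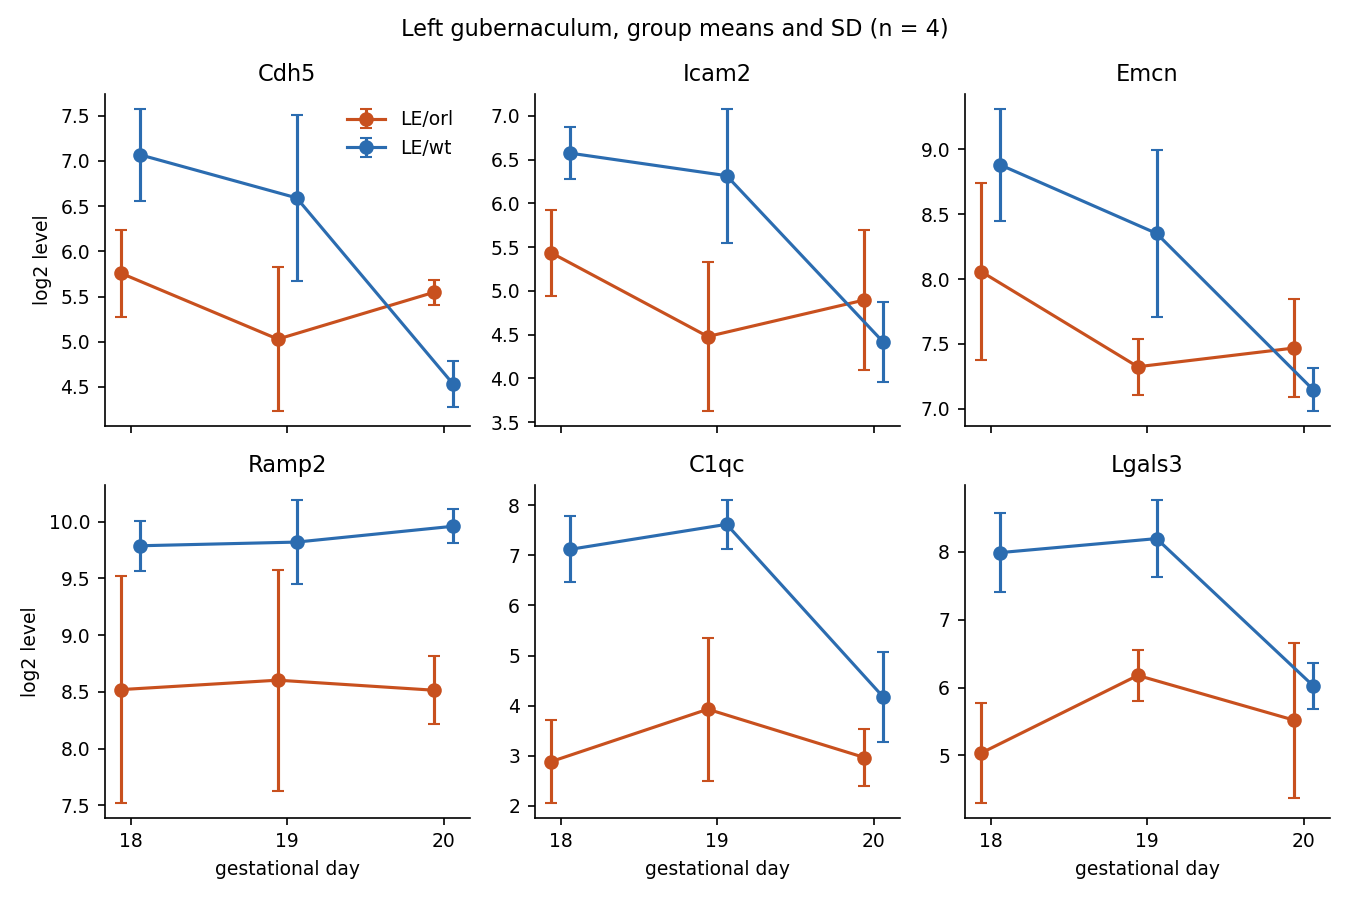
Group means ± SD (n = 4) of log2 level (vertical axes) in left gubernaculum at GD18, GD19 and GD20 (horizontal axes), LE/orl in orange and LE/wt in blue, for the 4 tested genes of blood vessel endothelium and for C1qc and Lgals3 of the macrophage list. In LE/wt all but Ramp2 are lower at GD20 than at GD19, and in LE/orl Cdh5 stays between 5.03 and 5.76.

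The lymphatic list of 14 genes held 2 named ones, Lyve1 and Nr2f2, a nuclear receptor of veins, lymphatics and mesenchyme. Nr2f2 was also higher in LE/orl at GD18 (0.93, SE 0.33, limma adjusted p = 0.0205) and on the left at GD20 (1.18, SE 0.33, limma adjusted p = 0.00483), and did not pass at GD19 (0.52) or on the right at GD20 (0.77). Between the sexes Nr2f2 went the other way from Lyve1 and was higher in males, by 1.19 (SE 0.33, limma adjusted p = 0.00345). The list of hyaluronan synthesis and binding gave 3 named genes of 19. Vcan, the matrix proteoglycan versican, was lower in LE/orl at GD18 (-0.61, SE 0.16, limma adjusted p = 0.00206), and Hmmr, a spindle and hyaluronan binding protein, was higher (1.75, SE 0.32, limma adjusted p = 4.83e-05). Hmmr was lower in males than in females (-1.64, SE 0.32, limma adjusted p = 9.16e-05), as was Lyve1, but rose in LE/wt between GD19 and GD20 (1.65, SE 0.32, limma adjusted p = 0.000168), where Lyve1 did not pass. Vcan was higher in males than in females, by 0.74 (SE 0.16, limma adjusted p = 0.000285).

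Of 31 macrophage genes 3 were named: C1qc, Lgals3, the lectin galectin-3, and Coro1a, an actin-binding protein of leukocytes. C1qc and Lgals3 were lower in LE/orl at GD18 and GD19, and Coro1a was at 0.06 and 0.00 (limma adjusted p = 0.889 and 0.997). The list's median was -2.95 at GD18 and -2.02 at GD19, against 0.06 and 0.02 over all features. Lgals3, which epithelial and other cells also make, differed by -2.95 (SE 0.45, limma adjusted p = 4.85e-06) at GD18 and -2.02 (SE 0.45, limma adjusted p = 0.000469) at GD19. Like C1qc it fell in LE/wt between GD19 and GD20 (-2.17, SE 0.45, limma adjusted p = 0.000352) and did not pass between strains on the left at GD20 (-0.51, limma adjusted p = 0.363). Coro1a behaved differently: on the left at GD20 it was lower in LE/orl (-1.73, SE 0.32, limma adjusted p = 0.000121), and at GD18 it was lower in males, at 7.28 ± 0.22 against 8.28 ± 0.47 in females (SD, n = 4 each, limma adjusted p = 0.0102). The complement list of 31 genes gave C1qc and Masp1, a protease of the lectin pathway that mesenchymal cells also make. Masp1 was higher in LE/orl, opposite to C1qc, by 0.81 (SE 0.31, limma adjusted p = 0.0300) at GD18, 0.74 (SE 0.31, limma adjusted p = 0.0451) at GD19 and 1.92 (SE 0.31, limma adjusted p = 3.30e-05) on the left at GD20. Between GD19 and GD20 in LE/wt it differed by -1.55 (SE 0.31, limma adjusted p = 0.000229).

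Of 36 vascular growth signals and receptors 6 were tested, and 2 were higher and 1 lower in LE/orl at GD18, where 26.8% and 24.1% of features were, with a median of 0.00 against 0.06 over all features. Apln, the peptide apelin that sprouting endothelium secretes, was higher in LE/orl at GD18 (1.86, SE 0.30, limma adjusted p = 1.01e-05) and GD19 (1.04, SE 0.30, limma adjusted p = 0.00461) and lower in males than in females (-2.70, SE 0.30, limma adjusted p = 2.12e-08). It rose in LE/wt between GD19 and GD20 (1.49, SE 0.30, limma adjusted p = 0.000242), the opposite of Cdh5. Vegfd, a growth factor for lymphatic vessels, had group means of 5.86 in LE/orl males, 5.96 in LE/wt males and 3.19 in LE/wt females at GD18. It did not pass between the strains (-0.10, limma adjusted p = 0.716) and was higher in males by 2.77 (SE 0.20, limma adjusted p = 1.56e-11). Pdgfa, a growth factor for mesenchyme and mural cells, was higher in LE/orl at GD18 (1.20, SE 0.37, limma adjusted p = 0.00748) and on the left at GD20 (1.56, SE 0.37, limma adjusted p = 0.00108).

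Of 6 tested genes of adherens and tight junctions 3 were higher in LE/orl at GD18 and 1, Cdh5, was lower, where 26.8% and 24.1% of features were, with a median of 0.70 against 0.06 over all features. On the left at GD20 5 were higher and 0 lower, where 19.9% and 26.6% of features were, with a median of 0.87 against -0.08. Cdh2, N-cadherin of mesenchyme and muscle, was higher in LE/orl at GD18 (1.85, SE 0.27, limma adjusted p = 2.67e-06) and at GD19 (1.93, SE 0.27, limma adjusted p = 1.32e-06). Alpha-catenin Ctnna1 was higher in LE/orl by 0.39 (SE 0.12) on both days, with limma adjusted p-values of 0.0112 and 0.0106. Vcl, vinculin, was higher in LE/orl at GD18 (2.43, SE 0.75, limma adjusted p = 0.00854), and beta-catenin Ctnnb1 did not pass at GD18 (1.00, limma adjusted p = 0.0638) and was higher on the left at GD20 (2.43, SE 0.45, limma adjusted p = 0.000121). Apart from Cdh5, these genes are not particular to endothelium.

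Markers of other cells moved as well. Of 4 mural and smooth muscle genes 3 were lower and 0 higher in LE/orl at GD18, where 24.1% of features were lower. The counts were the same at GD19, where 25.9% were. These genes were Anpep, Acta2, Tagln and Des, and Des is also counted among the striated muscle genes. The authors chose all named genes on these arrays, so the counts of these lists are not independent evidence. The mural list's median was -1.56 at GD18 and -1.70 at GD19. The smooth muscle actin Acta2 had a difference of -2.19 at GD18 (SE 0.24, limma adjusted p = 3.67e-08). Striated muscle gave 8 lower genes and 1 higher gene of 12 at GD18, against 24.1% and 26.8% of features, and at GD19 7 were lower, against 25.9% of features, and none was higher. Its median was -0.97 at GD18 and -0.71 at GD19. Of the 2 tested genes of fetal red cells, the globin Hbe1 was lower in LE/orl at GD18 (-2.19, SE 0.84, limma adjusted p = 0.0318) and at GD19 (-2.18, SE 0.84, limma adjusted p = 0.0320), and Car1 did not pass. Hbe1 had group means of 11.81 in LE/orl and 14.00 in LE/wt at GD18, and within LE/wt both genes fell between GD19 and GD20, with differences of -2.52 for Hbe1 and -3.80 for Car1. The part of blood content or muscle content in the levels of Cdh5 and C1qc was not tested.

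The genes most like each member were named by their Pearson r over the 34 gubernaculum arrays, which share groups, labelling and the index. Icam2 was the closest to Cdh5, with r of 0.87 over all arrays and 0.67 after the group means were removed. The next were LOC684755 at 0.84, Wars1 at 0.84, Ptk2 at 0.84 and Stard3nl at 0.84. Lyve1 was most like Tnrc6c (0.91), Ptprj (0.90), Ptprf (0.89), Cpd (0.89) and Slc25a51 (0.89), and C1qc most like Atp6v0e1 (0.89), Sacm1l (0.88), Uqcc2 (0.88), Mrps18a (0.88) and Dynll1 (0.88). Lyve1 and C1qc had no endothelial or macrophage list gene among these, but so few list genes are named that this says little. After the group means were removed, r among these genes was at most 0.65 for Lyve1 (Cpd) and 0.68 for C1qc (Sacm1l). Among themselves the members had r of -0.10 for Lyve1 and Cdh5, -0.51 for Lyve1 and C1qc and 0.48 for Cdh5 and C1qc, and 0.33, 0.03 and 0.18 after the group means were removed.

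In testis only Cdh5 reached the minimum signal, so 1 of the 3 genes was tested there. Lyve1 lay between 2.91 and 3.76 in LE/orl testes and between 3.35 and 4.03 in LE/wt testes, and C1qc between 2.31 and 3.21 in LE/orl testes and between 2.58 and 2.67 in LE/wt testes, all low signals in the 20 arrays. Cdh5 was lower in LE/orl at GD17 and rose with day. At GD17 it was at 6.01, 5.62, 5.52, 5.56 and 5.64 in LE/orl testes, against 6.51, 5.95, 6.15, 6.20 and 6.46 in LE/wt testes. The groups overlapped through LE/orl replicate A alone, and the difference was -0.59 (SE 0.12, limma adjusted p = 0.00166), in a comparison where 18.1% of 7878 features passed. At GD19 it was at 6.53, 6.75, 6.50, 6.29 and 6.32 in LE/orl, against 6.74, 6.64, 6.64, 6.70 and 6.33 in LE/wt. The ranges overlapped widely, and the difference of -0.13 (SE 0.12, 95% interval -0.38 to 0.11, limma adjusted p = 0.519) did not pass, where 13.3% of features did.

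Between GD19 and GD17 Cdh5 rose in LE/orl testis by 0.81 (SE 0.12, limma adjusted p = 7.57e-06), without overlap, where 55.5% of features passed and 39.1% did not overlap. In LE/wt testis it rose by 0.36 (SE 0.12, limma adjusted p = 0.0200), where 41.7% passed. Without LE/wt GD17 replicate B the LE/wt change was 0.28 and did not pass (adjusted p = 0.0669). The difference between these changes was 0.46 (SE 0.17, limma adjusted p = 0.0875) and missed the threshold, against 9.43% of features. It passed without LE/wt GD17 replicate B (0.53, adjusted p = 0.0428) or LE/orl GD17 replicate A (0.54, adjusted p = 0.0408). Of the 4 endothelial genes 1, Cdh5, was lower in LE/orl at GD17 and 0 were higher. Of all 7878 features 863 were lower there and 563 higher. The median of the 4 genes was -0.21, against 0.00 over all features. Fetal red cell gene Car1 was higher in LE/orl testis at GD17 by 3.91 and Hbe1 did not pass (0.20). The genes most like Cdh5 over the 20 testis arrays were Htra3 (r = 0.94), Mgp (0.94) and Dcn (0.93), which are matrix and connective tissue genes.

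**Figure D5:**
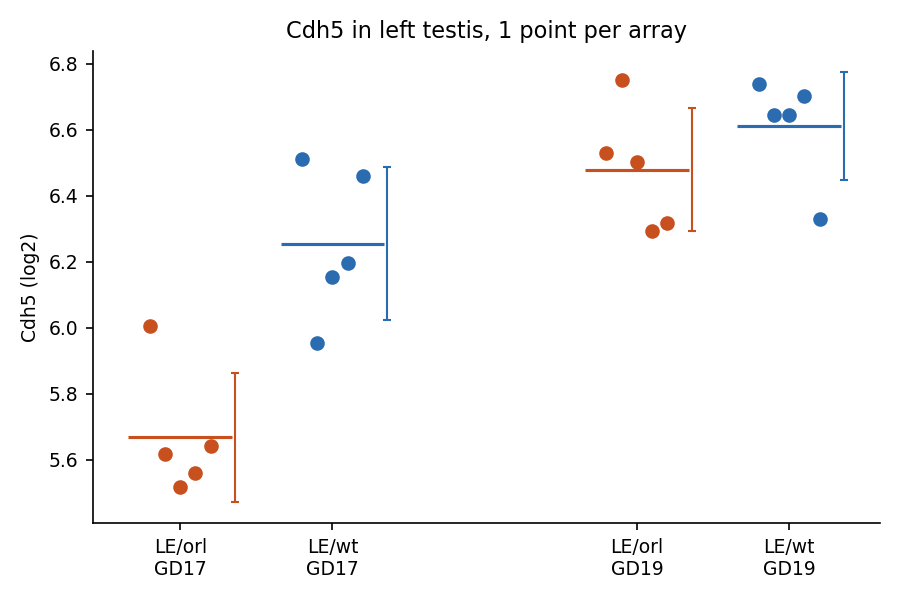
Log2 level of Cdh5 (vertical axis) in each left testis array at GD17 and GD19, LE/orl in orange and LE/wt in blue, with group means as horizontal bars and ± 1 SD to their right (n = 5 each). The LE/orl GD17 arrays lie between 5.52 and 6.01, and the other groups between 5.95 and 6.75.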

How the data were processed

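Rat gubernaculum and testis RNA was measured on 54 one-colour Affymetrix arrays with 15923 probe sets. The authors deposited GCRMA expression on the log2 scale (the method is per the submitters' processing notes). Their deposited gene lists give linear intensity means per group, and per the deposited methods text the LE/orl means leave out replicate A of GD18 and replicate D of GD19. Which arrays were normalised together, the genome build and detection calls are not given in the sources used here. Precision is limited by the number of arrays.

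The groups of each tissue shared 1 linear model, fitted in limma 3.58.1 under R 4.3.3 and moderated with eBayes. A feature was kept where its log2 value reached 5 in 3 gubernaculum or 5 testis arrays, which left 8711 features with 25 residual degrees of freedom and 7878 with 16. Each named gene was its probe set of highest mean, beside all unnamed probe sets, and 57 controls were left out. Names came from the authors' lists: they hold 3922 probe sets, 3008 with a single symbol, 165 with more than 1 and 749 unnamed. P-values were adjusted by Benjamini-Hochberg over all features of a contrast, and a call is an adjusted p under 0.05. The fit was tested on simulated data.

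The members, the 13 gene lists and the tests were chosen with earlier results of these data known. Members were named in every comparison, list genes where they passed a strain test (at most 6 per list) or where a list had at most 8 named genes, and similar genes by highest r. Left and right gubernacula at GD20 share fetuses per the labels; their deviations from the group means correlated at between -0.35 and 0.55, and the fetus was used as a random block (consensus correlation from duplicateCorrelation) and as a fixed block. Alternatives were no minimum or one of 7, quantile normalisation, 75th percentile centring, every probe set, array weights, a trended robust prior, only the groups compared, replicate and fetus blocks, the index as a covariate, each array left out, and, chosen after seeing the data, values under 5 set to 5.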

Additional observations from a re-analysis of the deposited data

Results flagged for a closer look

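The strain difference of Cdh5 changed with day by 2.578 between GD20 and GD19 and by 2.327 between GD20 and GD18 in left gubernaculum, and that of C1qc by 2.48 and 3.025, all 4 past the threshold of the interaction test in limma. Both genes fell in LE/wt between GD19 and GD20, and neither passed between these days in LE/orl. C1qc was a low signal in 13 of the 15 LE/orl gubernaculum arrays, so a like fall could not show there.

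In 4 of the 33 groups of a gene with at least 4 arrays, 1 array stood far from the others, where chance gives about 1 in 20. Cdh5 in LE/orl GD20 left gubernaculum had its highest value, 5.7529, in replicate B, and the other arrays of the group were at 5.48 each. Cdh5 in LE/wt GD19 testis had its lowest value, 6.3283, in replicate E. In LE/orl GD17 testis replicate A was the highest of its group for Cdh5, at 6.0059, and for C1qc, at 3.207, a low signal.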

How the results depend on the processing

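Of 588 results of the 3 genes under alternatives other than a left-out array, 556 kept their direction and their side of the threshold, and of 456 with 1 array left out 420 did. The cause of the changes below was not tested. The gubernaculum strain differences at GD18 and GD19 changed their call only where the single LE/orl array near LE/wt in index stood alone for its group (Lyve1 1.21 and Cdh5 -1.22 at GD18, C1qc -2.01 at GD19, with 2049 features called at GD18). With the index as a covariate, which moves with strain at GD20, Lyve1 gave 1.40 on the left and 1.25 on the right without passing, Cdh5 gave 0.19 on the left, also without passing, and C1qc 0.23 on the right, and features called numbered 2635 at GD18, 2783 at GD19, 44 on the left and 40 on the right at GD20, and 41 between GD19 and GD18 in LE/wt. With only the groups compared, C1qc passed on the left at GD20 (-1.21) and between the sexes (1.52), and features called between days numbered 0 (GD19 minus GD18) and 0 (GD20 minus GD19) in LE/orl and 2 (GD19 minus GD18) in LE/wt.

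With no minimum, Cdh5 on the left at GD20 (1.02) and the GD20 minus GD19 change of the C1qc strain difference (2.48) missed the threshold, and features called were 9505 between the sexes, 184 between GD20 and GD19 in LE/orl, 36 between GD19 and GD18 in LE/wt, 1 between the sides of LE/orl and 2 for the GD19 minus GD18 change. With a minimum of 7, C1qc passed between the sexes (1.52), and 2 features passed between GD20 and GD19 in LE/orl and 9 between GD19 and GD18 in LE/wt. With values under 5 set to 5, chosen after seeing the data, Cdh5 did not pass on the left at GD20 (0.55), C1qc passed between the sexes (1.48), the GD19 minus GD18 change was -0.35 for C1qc and 0.029 for Cdh5, and 19 features passed between GD20 and GD19 in LE/orl. Centring on the 75th percentile brought Cdh5 on the right (1.11) and C1qc between the sexes (1.62) past the threshold. Quantile normalisation brought C1qc between the sexes past it (1.63), its GD20 minus GD19 change below it (2.39), and gave Lyve1 0.0011 for its GD19 minus GD18 change. With array weights Cdh5 passed on the right at GD20 (0.83) and for its testis change (0.46), and C1qc passed between the sexes (1.45). Array weights also gave Cdh5 -0.014 between the sides of LE/orl and 0.13 for its GD19 minus GD18 change, and C1qc 0.0062 between GD20 and GD19 in LE/orl. Features called with array weights were 5180 on the right at GD20, 57 in LE/orl and 103 in LE/wt between GD19 and GD18, 3 between the sides of LE/orl and 11 between those of LE/wt, 3679 for the GD20 minus GD18 change and 1142 for the testis change. Without the 2 arrays that the authors left out, the GD19 minus GD18 change of Cdh5 was 0.16.

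With the replicate block by letter Cdh5 passed on the right at GD20 (1.08), the GD20 minus GD19 change of C1qc missed the threshold (2.48), Cdh5 was -0.041 between the sides of LE/wt, and 5 features passed between GD19 and GD18 in LE/orl. With the replicate block by fetus that change of C1qc also missed it (2.48), 5 features passed between the sides of LE/orl, and no block changed another call.

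With each array left out in turn, Cdh5 ran from 0.94 to 1.13 on the left and from 0.72 to 1.41 on the right at GD20, C1qc from -1.89 to -0.11 on the right, and C1qc between the sexes from 1.26 to 1.70. The GD19 minus GD18 change ran from -0.014 to 1.04 for C1qc, -0.47 to 0.28 for Lyve1 and -0.54 to 0.13 for Cdh5, the GD20 minus GD19 change of C1qc from 1.98 to 3.04, the GD20 minus GD18 change of Lyve1 from -0.71 to 0.039, and the Cdh5 testis change from 0.38 to 0.54. Between days, Cdh5 in LE/wt testis ran from 0.28 to 0.43 and Lyve1 between GD19 and GD18 in LE/orl from -0.053 to 0.69. Between the sides, C1qc ran from -0.0024 to 1.78 in LE/orl and -0.028 to 1.06 in LE/wt, Cdh5 from -0.18 to 0.51 in LE/orl and -0.13 to 0.43 in LE/wt, and Lyve1 from -0.13 to 0.52 in LE/orl. Features called ran from 2 to 14 in LE/orl and 11 to 25 in LE/wt between GD19 and GD18, 0 to 27 between GD20 and GD19 in LE/orl, 0 to 1 for the GD19 minus GD18 change and 0 to 1 between the sides of LE/orl.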

Other observations

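The authors' deposited table gives linear group means for the same probe sets. For Lyve1 the authors' deposited table has intensities of 790 at GD18 and 765 at GD19 in LE/orl, against 106 and 144 in LE/wt, and 423 in LE/wt females. For C1qc the authors' deposited table has 6 at GD18 and 13 at GD19 in LE/orl, against 150 and 205 in LE/wt, and 51 in females. The means for LE/orl at GD18 and GD19 rest on 3 arrays each. For Cdh5 the authors' deposited table holds LE/wt means alone, 141 at GD18 and 113 at GD19, and 32 in females.

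From a list for nerve and Schwann cells, chosen as another cell type of the tissue, 4 genes were tested. They were Uchl1, Ngfr, Stmn2 and Chrna1, the last an acetylcholine receptor subunit of muscle, so the counts are not of nerve genes alone. In LE/orl 1 was lower and 0 were higher at GD18 and at GD19, where 24.1% and 25.9% of features were lower. Uchl1, a neuronal ubiquitin hydrolase, was the lower one (-3.65 at GD18 and -3.46 at GD19). Ngfr and Stmn2 did not pass between the strains at GD18 (0.16 and 0.16). Between GD19 and GD20 in LE/wt Uchl1 fell (-2.05). There 1 of the 4 genes was lower and 2 were higher, where 39.5% of features passed in either direction.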
